A study of Drosophila melanogaster with 16 samples.

Results

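Heads of flies that made human wild-type α-synuclein only in glia were compared with heads of flies that made it only in neurons, across all genes of one deposited table. The comparison rests on 6 of the 16 samples of the series, 3 of each group, and 13 samples of all 4 groups have a column in that table. Of the 12286 genes in the table, 12181 reached at least 1 normalized count in at least 4 of the 13 libraries and were tested. Glia flies had the genotype SybQF2, RepoGAL4/UAS-Syn, in which GAL4 from the glial gene repo drives the UAS transgene. Neuron flies were SybQF2, RepoGAL4, QUAS-Syn/+, in which QF2 from the neuronal synaptobrevin gene drives the QUAS transgene. Another genotype, SybQF2, RepoGAL4, QUASSyn/UAS-Syn, made the protein in both cell classes and is called both here, and SybQF2, RepoGAL4/+ flies carried the drivers without a transgene and are called control. All 4 genotypes therefore carried both drivers. The cell class that made α-synuclein differed between glia and neuron flies together with the expression system and the transgene, so these cannot be told apart. Each library came from a pool of 6 flies at 10 days of age, 3 males and 3 females. Glia 1, 2 and 4 and neuron 1, 2 and 3 were used; glia 3 and neuron 4 were not analysed here. By the labels the replicate number is also the batch, so batches 1 and 2 hold both groups, batch 3 holds only a neuron library and batch 4 only a glia library.

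α-Synuclein is a small presynaptic protein in vertebrates, and it is the main component of the inclusions found in neurons in Parkinson's disease and in oligodendrocytes in multiple system atrophy. The fly has no α-synuclein gene of its own, and its glia ensheath neurons, form the blood-brain barrier, clear debris and recycle transmitters. A fly head also holds the compound eyes, the antennae with their olfactory organs, fat body, muscle, pigment cells and blood cells. The midgut lies in the thorax and abdomen, where its enterocytes secrete digestive proteases, glycosidases and lysozymes and carry a brush border of actin and class I myosins.

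All values are normalized counts, that is, the deposited value less its offset of 1, which is a read number divided by a size factor of the library. Differences are glia minus neuron on the scale of log2(normalized count + 1), with standard errors (SE) and Benjamini-Hochberg adjusted p-values from limma over all 12181 genes, called at 0.05. Library totals were 3125791, 3419829 and 3235216 reads in glia and 4176009, 4158972 and 3741323 reads in neuron. The α-synuclein transgene was not analysed here, since the table lists fly genes. Levels of the fly genes repo and nSyb are given, but they measure neither GAL4, QF2 nor the transgenes. The glial transcription factor repo had 204, 102 and 207 normalized counts in glia and 269.6, 251 and 218 in neuron (log2 difference -0.59, SE 0.22, adjusted p = 0.145). nSyb, the synaptic vesicle protein whose promoter drives QF2, had 2248, 1360.1 and 2800.3 in glia and 3584, 3040.3 and 2946 in neuron (log2 difference -0.64, SE 0.20, adjusted p = 0.109). Both genes were present in every library, and each was lower in every glia library than in every neuron library. Their unadjusted limma p-values were 0.0177 for repo and 0.0087 for nSyb, and their adjusted p-values were above 0.05. The eye colour gene w, a usual marker of fly transgenes, had 195, 277 and 3431 in glia and 224, 436 and 3770.0 in neuron, low in batches 1 and 2 and high in batches 3 and 4 of every genotype.

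Marker genes of some organs outside the head were higher in the glia libraries. The 46 measured gut digestive enzymes summed to 72530, 45540 and 27000 normalized counts in glia 1, 2 and 4 and to 2156, 14060 and 5425 in neuron 1, 2 and 3. Of these 46 genes, 1, 1 and 2 were at 0 in the glia libraries and 22, 8 and 7 in the neuron libraries. The 20 midgut enterocyte genes summed to 6354, 5969 and 5954 in glia and 2224, 3455 and 2558 in neuron. Every glia library was above every neuron library in both sums, and the exact two-sided permutation p of each was 0.1, the smallest that 3 against 3 allows. The summed gut level was 10590 to 23830 in control and 869 to 26950 in the both libraries. Genes of oenocytes, the cuticular hydrocarbon cells of the abdomen, summed to 14870, 36690 and 16370 in glia and 10790, 12790 and 10990 in neuron, with 30210, 18770 and 15910 in control libraries, so that control 1 lay above glia 1 and 4. Eggshell genes summed to 193.8, 2903 and 19.51 in glia and 12.42, 7.276 and 6.725 in neuron, with glia 2 far above the rest. Of the 8 eggshell genes, 4 (dec, Vm26Aa, Vm34Ca and psd) had no read in any neuron library. Vm26Aa and Vm34Ca had none in glia 4 either. In all, 4 eggshell genes were at 0 in glia 4, beside 4, 5 and 5 in neuron 1, 2 and 3. The exact two-sided permutation p of the sums was 0.1 for oenocytes and eggshell, 0.2 for Malpighian tubules, 0.3 for female germline and 0.4 for accessory gland, and the last 3 overlapped.

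Markers of the head's own nerve cells lay the other way. The 30 neuronal genes summed to 53080, 30400 and 61220 normalized counts in glia and 75120, 64160 and 62400 in neuron, and the 42 photoreceptor genes to 125000, 65670 and 121600 in glia and 208200, 148600 and 185600 in neuron. Glia 2 was the lowest of all 6 libraries in both sums, and no member of either list was at 0 in any of them. The 24 glial genes summed to 23410, 16590 and 22870 in glia and 27510, 25300 and 27700 in neuron, again without overlap and with glia 2 lowest (exact two-sided permutation p = 0.1 for each of these 3 lists). Control libraries also lay below every neuron library in these sums, at 48690, 53840 and 49880 for the neuronal genes. They held 116600, 128300 and 117400 for the photoreceptor genes and 21290, 23890 and 22590 for the glial genes. The both libraries held 66590 to 75970, 156700 to 203700 and 25090 to 30840. In whole heads, fewer cells of a type and less RNA per cell cannot be told apart. The levels also depend on how the libraries are scaled. With libraries centred on the neuronal list in place of all genes, the median log2 difference moved from -0.775 to -0.235 for the photoreceptor list. It moved from -0.302 to 0.237 for the glial list.

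**Figure D1:**
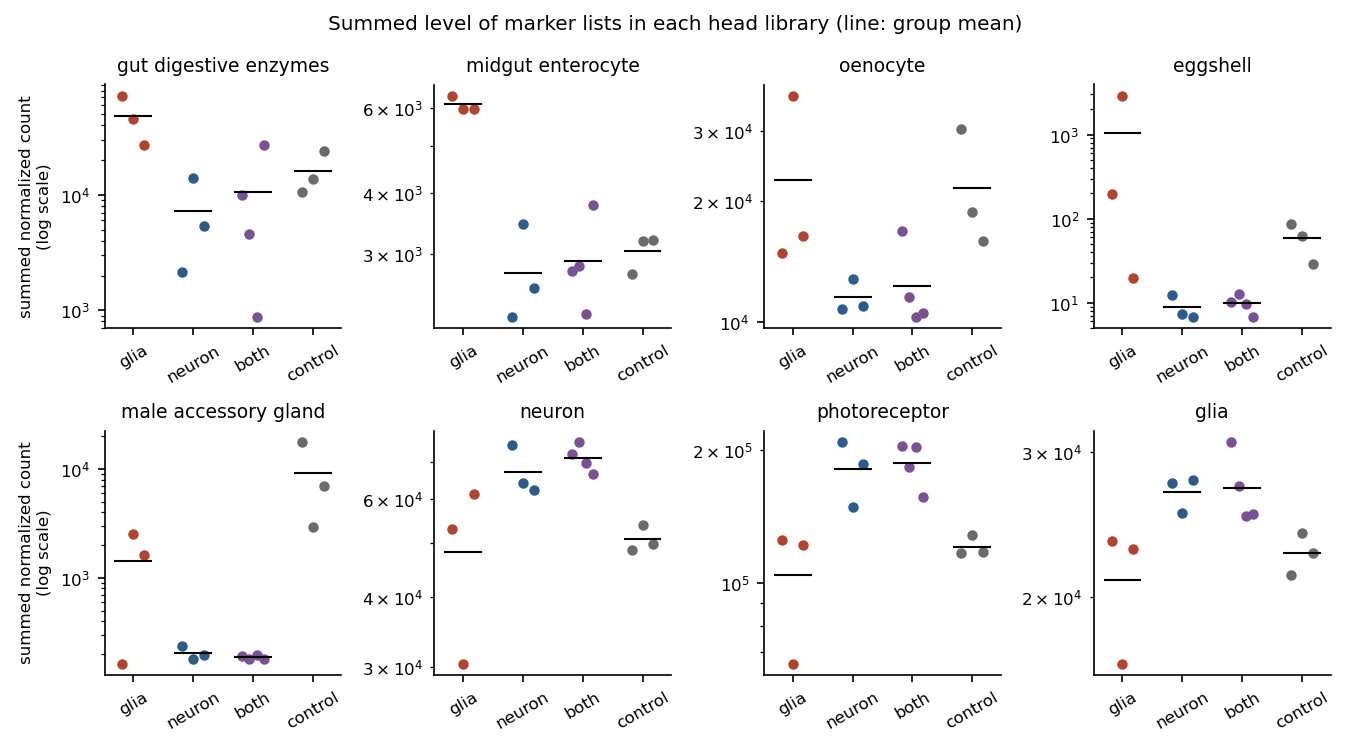
Summed normalized counts (log10 axis) of 8 marker lists in every library, with glia, neuron, both and control from left to right; each point is 1 library. The gut, enterocyte and oenocyte sums of the 3 glia libraries lie above those of the 3 neuron libraries, and the neuron, photoreceptor and glia list sums lie below them.

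Calls higher in glia included 9 of 46 digestive enzymes, 11 of 20 enterocyte genes and 10 of 27 actin and spectrin genes. Calls lower in glia included 5 of the 35 odorant-binding genes listed and 9 of 42 photoreceptor genes. In all, 395 of the 12181 genes were called (3.24%), of which 324 were higher in glia (2.66%) and 71 lower (0.583%). The 3 glia libraries all lay above the 3 neuron libraries for 1595 genes (13.1% of those tested) and all below for 1206 genes (9.9%). Each of the 324 higher and 71 lower genes had non-overlapping libraries, which by itself fixes the same direction within batch 1 and within batch 2. The calls were made on these same libraries, so neither trait is separate support. The genes higher in glia differed by a median of 8.43-fold, and 167 of them by at least 3 on the log2 scale. The genes lower in glia differed by a median of 1.83-fold, and none by more than 2.20 on the log2 scale. At an unadjusted p under 0.05 there were 2621 genes, and the median difference over all tested genes was 0.0563.

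The number and balance of these calls moved with the libraries used and with the scaling. Leaving out neuron 1 left 139 calls, 135 higher and 4 lower in glia. Leaving out glia 2 left 178 calls, 163 higher and 15 lower, and leaving out glia 4 gave 1192, 601 higher and 591 lower. The number of lower calls was also 154 without glia 1, 24 without neuron 2 and 9 without neuron 3. With the batch as a term, 212 genes were called, 186 higher and 26 lower, and 183 of the 212 were among the 395. When the libraries were centred on the neuronal list in place of all genes, the median difference of all genes moved to 0.595. That centring gave 432 higher and 3 lower calls, so that 99.3% of calls were higher in glia, against 82% on the deposited scale. Of the 71 genes lower in glia, 67 still had negative differences with the centring, and 3 of them were called. voom on recovered reads called 297 genes, 255 higher and 42 lower, and shared 277 with the 395.

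**Figure D2:**
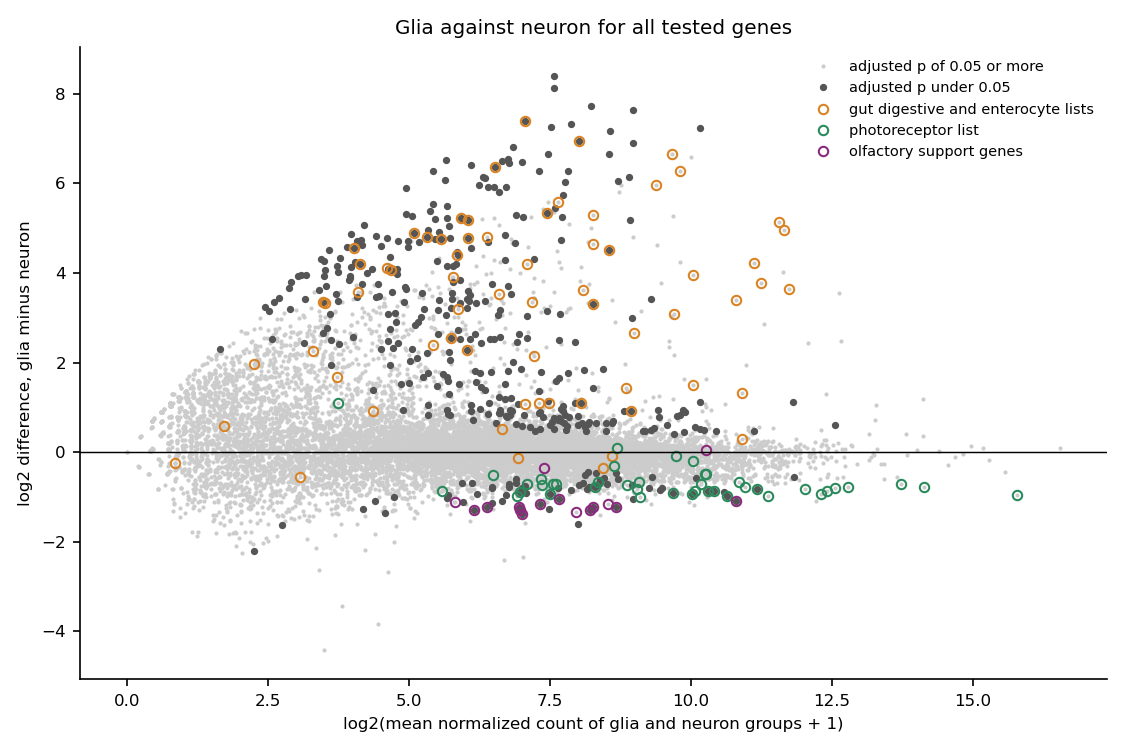
Log2 difference, glia minus neuron, of every tested gene against its mean level over the 6 libraries on a log2 scale, with called genes marked. The 324 genes higher in glia reach 8.40 and lie mostly at low to middle levels, while the 71 lower genes lie between 0 and -2.20.

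**Figure D3:**
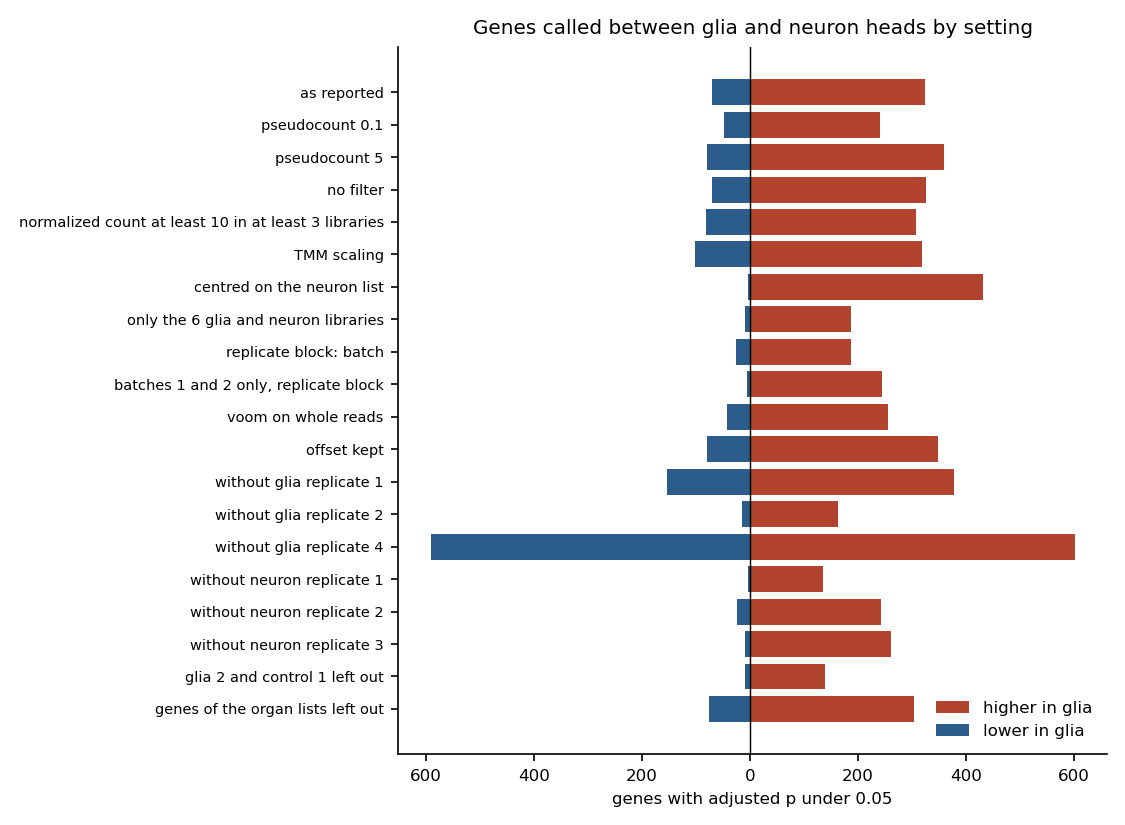
Number of genes called higher and lower in glia as reported and under each alternative setting. The counts run from 135 to 601 for higher and from 3 to 591 for lower genes.

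The largest differences among genes averaging at least 5 normalized counts in glia were mostly in genes with few or no reads in neuron heads. CG18404 had 493, 488 and 159 normalized counts in the glia libraries and no read in any neuron library (log2 difference 8.40, SE 1.19, adjusted p = 0.00212), which is at least 414-fold higher against the floor of 3 reads over the neuron libraries. Its level was 0, 0, 0.744 and 6.76 in both and 33.5, 0 and 0 in control libraries. CG18493, named after its values were seen, had 432, 565 and 291 in glia, 5.32, 7.28 and 3.84 in neuron, 8.94, 5.12, 8.18 and 13.5 in both and 26.04, 12.2 and 19.9 in control libraries, with an adjusted p of 1.33e-05. For both genes, every glia library lay above every library of the other genotypes. CG5767 had 316, 589 and 228 in glia and 0, 0 and 0.961 in neuron, a ratio of 1260 with a 95% counting interval of 226 to 49900. CG10912 had 326, 694 and 1972 in glia and 0, 18.2 and 1.92 in neuron, and it lost its call when glia 2, neuron 1 or neuron 3 was left out (adjusted p up to 0.0939) or with the batch term (0.0633). Pebp1, a phosphatidylethanolamine-binding protein, had 601, 641 and 160.4 in glia and 1.77, 1.82 and 0.961 in neuron (log2 difference 7.32, SE 1.03, adjusted p = 0.00210). Of the 10 genes with the largest differences, 8 kept their call whichever of the 6 libraries was left out. With voom on recovered reads 3 of the 10 were called (CG18404, CG5767 and CG31198), and the others had adjusted p-values of up to 0.487.

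M1 aminopeptidases trim amino acids from the ends of peptides, and 3 of the 10 largest differences were in this family. CG31198 had 3113, 2941 and 718 normalized counts in glia and 0.887, 10.9 and 82.6 in neuron (log2 difference 7.25, SE 1.22, adjusted p = 0.00592). CG31343 had 1189.9, 941 and 121 in glia and 1.77, 1.82 and 4.80 in neuron (log2 difference 7.18, SE 0.87, adjusted p = 0.00111), and CG31233 had 1021, 656 and 120.3 in glia and 0, 0 and 7.69 in neuron (7.72, SE 1.02, adjusted p = 0.00162). CG42335 and CG8773, of the same family and named after their values were seen, differed by 4.58 and 6.54 (adjusted p = 0.00376 and 0.00397), and CG8773 was not called with voom (0.109). Glia 4 was the lowest glia library for CG31198, CG31343, CG31233 and CG8773, and it still lay above every neuron library. The lysosomal type α-mannosidase CG9468 had 758, 155 and 176 in glia and 0, 0 and 4.80 in neuron (log2 difference 7.26, SE 0.88, adjusted p = 0.00111). Its neighbours of the same family, CG9466 and CG9463, differed by 5.91 and 5.27, so that all 3 genes of this cluster were called, and all 3 kept their call whichever library was left out. With voom none of the 3 was called (adjusted p 0.0817 to 0.109). The family was chosen after its values were seen.

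Of 46 digestive enzymes of the gut, 9 were called, all higher in glia (19.6%, beside 2.66% of all genes). The median difference of the 46 was 3.85, with 43 positive and 3 negative values. Among the 9 are 4 trypsins, which cut proteins after lysine or arginine. thetaTry had 443, 273 and 74.8 normalized counts in glia and 0, 0.909 and 0 in neuron (log2 difference 7.40, SE 0.96, adjusted p = 0.00149), a ratio of 829 with a counting interval of 148 to 32800. lambdaTry had 289, 246 and 14.1 in glia and 0, 0 and 0.961 in neuron (log2 difference 6.36, SE 0.94, adjusted p = 0.00283), with glia 4 far below the other 2 glia libraries. etaTry and kappaTry differed by 4.20 and 4.77, and kappaTry lost its call without glia 1, glia 2, neuron 1 or neuron 3 (adjusted p up to 0.180). The Jonah serine protease Jon65Ai had 1194, 361 and 3.25 in glia and no read in neuron, and its call (adjusted p = 0.0312) was kept without glia 4 and lost without any of the other 5 libraries, with values up to 0.122. The most abundant gene of the list, the trypsin alphaTry, had 6141, 6503 and 5274 in glia and 105, 1909 and 548 in neuron. It did not pass the test (log2 difference 3.63, SE 2.08, adjusted p = 0.332), and its neuron libraries were spread wider than its glia libraries.

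Enzymes for sugars and bacterial walls followed the same pattern. The maltase Mal-A4 had 24.7, 43.8 and 21.7 normalized counts in glia and 0, 0 and 0.961 in neuron (log2 difference 4.57, SE 0.52, adjusted p = 0.000831). Mal-A2 had 66.3, 125 and 156 in glia and 0, 5.46 and 2.88 in neuron (log2 difference 5.23, SE 0.89, adjusted p = 0.00640), while Mal-A3, at 26.01, 27.5 and 4.34 in glia and 0, 0 and 2.88 in neuron, was called at 0.0450 and lost its call without glia 1, glia 2, neuron 1 or neuron 2 (adjusted p up to 0.192). The lysozyme LysX had 72.8, 25.5 and 96.5 in glia and 0, 2.73 and 0.961 in neuron (log2 difference 4.89, SE 0.66, adjusted p = 0.00173) and was near 0 in both and control libraries. Of the 9 called enzymes, 6 (thetaTry, Mal-A4, LysX, lambdaTry, Mal-A2 and etaTry) were called whichever library was left out, and 7 with the batch term. With voom 5 of the 9 were called, and thetaTry, lambdaTry, Jon65Ai and Mal-A3 were not (adjusted p up to 0.487). Trypsins, Jonah proteases, maltases and lysozymes are gene families in which some copies are similar in sequence. How reads that match several copies were counted is not given in the sources used here.

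**Figure D4:**
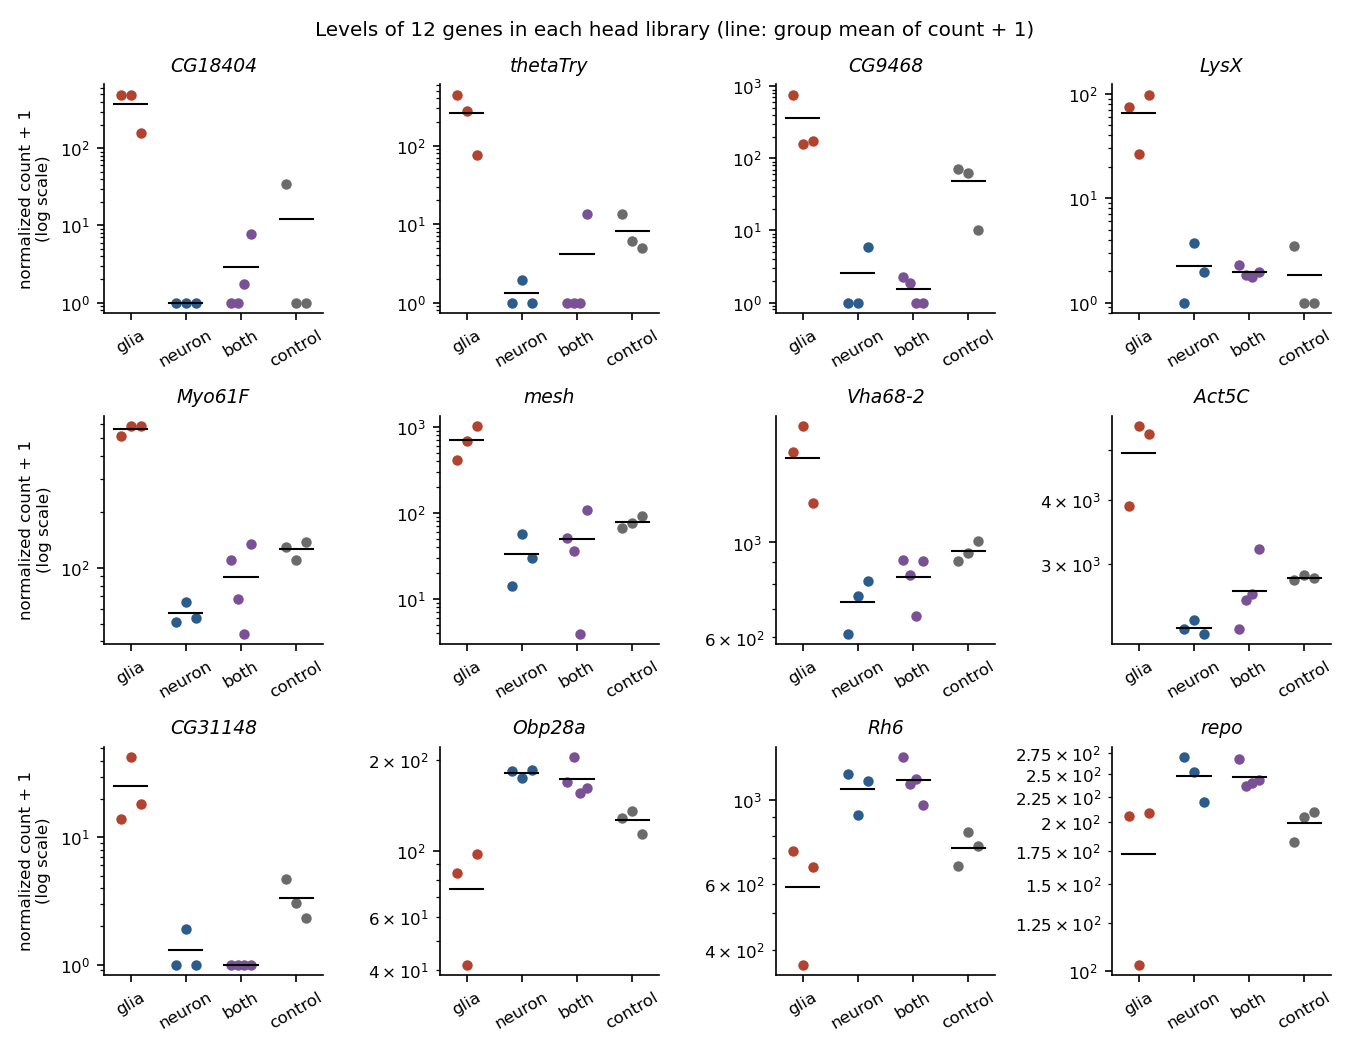
Normalized count + 1 (log axis) of 12 genes in every library, with glia, neuron, both and control from left to right; points are libraries and bars are group means. In the group means, CG18404, thetaTry, CG9468, LysX, Myo61F, mesh, Vha68-2, Act5C and CG31148 are highest in glia, while Obp28a and Rh6 are lowest in glia and repo overlaps the control libraries.

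Of 20 genes of midgut enterocytes other than secreted enzymes, 11 were called, all higher in glia (55%, beside 2.66% of all genes), and 18 of the 20 differences were positive. Myo61F, a class I myosin of the brush border, had 515, 581 and 583 normalized counts in glia and 49.7, 64.6 and 52.8 in neuron (log2 difference 3.31, SE 0.32, adjusted p = 0.000218), a steady level in all 3 glia libraries. It stood at 109.8, 66.6, 43.1 and 134 in both and 128, 109.5 and 137 in control libraries. Its paralog Myo31DF had 371, 359.9 and 345 in glia and 161, 176 and 167 in neuron (log2 difference 1.09, SE 0.17, adjusted p = 0.00331). mesh, a membrane protein of the smooth septate junctions that seal the fly gut, had 412, 689 and 1031 in glia and 13.3, 56.4 and 28.8 in neuron (log2 difference 4.52, SE 0.92, adjusted p = 0.0187). Tsp2A, a tetraspanin of the same junctions, had 55.9, 89.7 and 127 in glia and 17.7, 10 and 15.4 in neuron (log2 difference 2.54, SE 0.36, adjusted p = 0.00198). Neither gene's groups overlapped. Ssk, another protein of that junction, had 159, 191 and 359.9 in glia and 23.9, 41.8 and 118 in neuron and did not pass (adjusted p = 0.0866). mex1, a small enterocyte protein, had 58.5, 81.6 and 87.8 in glia and 0.887, 4.55 and 0.961 in neuron (log2 difference 4.79, SE 0.73, adjusted p = 0.00323). The POU transcription factor nub, which acts in enterocytes as well as in neural lineages, had 84.5, 99.9 and 139.8 in glia and 18.6, 23.6 and 21.1 in neuron (log2 difference 2.28, SE 0.25, adjusted p = 0.000551).

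Lipid handling genes of the gut were among these. The lipase mag had 876, 162 and 5.42 normalized counts in glia and 0.887, 2.73 and 0.961 in neuron (log2 difference 5.34, SE 1.31, adjusted p = 0.0460), so that 1 glia library held most of its reads. Npc1b, needed for dietary sterol uptake in the fly midgut and named after its values were seen, had 46.8, 204 and 18.4 in glia and 0.887, 0.909 and 0.961 in neuron (log2 difference 4.91, SE 0.71, adjusted p = 0.00237), and it was not called with voom (0.125). Tsp2A, mex1, Myo61F, nub and Myo31DF kept their call whichever library was left out. The other 6 (mag, MtnC, mesh, MtnB, bbg and Vha100-4) lost it without glia 2, neuron 1 or neuron 3 (adjusted p up to 0.149, 0.213 and 0.129), and 6 of the 11 were called with the batch term. mag and bbg lost it without glia 1 (0.0755 and 0.0579), mag and Vha100-4 without neuron 2 (0.0859 and 0.0806), and bbg without glia 4 (0.0639). MtnC, mag, MtnB and bbg were not called with voom (adjusted p up to 0.425).

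Genes abundant in both groups were chosen by p-value, which favours a small spread between libraries. Among genes averaging at least 50 normalized counts in each group, the 8 smallest p-values higher in glia belonged to CG11961, Myo61F, CG9380, scb, CG2930, Act5C, CG9743 and Mlc-c. CG11961 had 295, 289.6 and 284 in glia and 79.8, 95.5 and 117 in neuron (log2 difference 1.58, SE 0.13, adjusted p = 7.06e-05), and 105, 109, 112 and 121 in both and 122, 106 and 115 in control libraries, so only the glia libraries stood apart. scb, the αPS3 integrin, had 239, 303 and 381 in glia and 75.4, 104 and 110.5 in neuron (log2 difference 1.66, SE 0.19, adjusted p = 0.000862). CG2930, of the oligopeptide transporter family, had 471, 475 and 301 in glia and 51.4, 90.9 and 83.6 in neuron (log2 difference 2.46, SE 0.31, adjusted p = 0.00133). CG9743, a fatty acid desaturase, had 194, 225 and 206 in glia and 105, 117 and 113 in neuron (log2 difference 0.89, SE 0.13, adjusted p = 0.00264). All 8 were called whichever library was left out, with the batch term and with centring on the neuronal list. In batches 1 and 2 alone with the batch term, Act5C, CG9743 and Mlc-c were not called (adjusted p up to 0.233).

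Several called genes of the cytoskeleton list were also abundant in both groups. Of 27 actin, spectrin and actin regulator genes, 10 were called, all higher in glia (37%, beside 2.66% of all genes), and the median difference was 0.469. Act5C, a cytoplasmic actin, had 3884, 5571 and 5363 normalized counts in glia and 2236, 2336 and 2196 in neuron (log2 difference 1.11, SE 0.15, adjusted p = 0.00173), beside 2246, 2548, 2625 and 3212 in both and 2787, 2850.2 and 2818 in control libraries. kst, the βH-spectrin of apical membranes, had 2537, 2585 and 2599.8 in glia and 1954, 1849 and 1776 in neuron (log2 difference 0.47, SE 0.09, adjusted p = 0.0113). zip, the non-muscle myosin II heavy chain, had 1264, 1523 and 1459 in glia and 1029.6, 982 and 996 in neuron (log2 difference 0.49, SE 0.09, adjusted p = 0.0116). The myosin light chain Mlc-c, outside the list, had 459, 484 and 485 in glia and 291, 310.1 and 306 in neuron (0.65, SE 0.10, adjusted p = 0.00269). Further members were the cofilin tsr (0.93), the Arp2/3 subunits Arp2 (0.63) and Arpc3B (2.58), the filamin cher (0.80), the capping proteins cpa and cpb (0.59 and 0.48) and the GTPase Cdc42 (0.47). The groups did not overlap for any of them. Act5C, kst and zip kept their call in every fit with a library left out, while the other 7 lost it without neuron 1 (adjusted p up to 0.180), 6 of them without glia 2 (up to 0.118) and 4 without neuron 3 (up to 0.138). With the batch term Act5C, Arp2 and cpa were called, and with voom all but cher (0.0506). The summed enterocyte level, 5954 to 6354 in glia and 2224 to 3455 in neuron, moved the same way, and its part in these differences was not tested.

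The V-ATPase, the proton pump of lysosomes, synaptic vesicles and apical membranes, was higher in glia in 8 of 25 measured subunits (32%, beside 2.66% of all genes). Vha68-2, a catalytic A subunit, had 1626, 1871 and 1235 normalized counts in glia and 612, 750.3 and 813 in neuron (log2 difference 1.11, SE 0.16, adjusted p = 0.00269). VhaAC45, an accessory subunit, had 1508, 1272 and 1266 in glia and 933, 992 and 884 in neuron (log2 difference 0.52, SE 0.11, adjusted p = 0.0193), and the proteolipid subunit Vha16-1 had 7688, 7648 and 6528 in glia and 4684, 5327 and 4463 in neuron (0.60, SE 0.13, adjusted p = 0.0259). The whole list summed to 23340, 22200 and 20300 in glia and 15590, 17180 and 15540 in neuron, without overlap. Of the isoforms of subunit a, Vha100-5 had 163, 255 and 178 in glia and 0.887, 14.6 and 9.61 in neuron (4.85, SE 1.12, adjusted p = 0.0354), and Vha100-2 had 1152, 1291 and 948 in glia and 474, 841 and 642 in neuron (0.82, SE 0.20, adjusted p = 0.0454). The gut isoform Vha100-4, counted with the enterocyte genes, had 153, 147 and 79.1 in glia and 7.09, 0.909 and 4.80 in neuron (4.77, SE 0.99, adjusted p = 0.0216). Vha68-2 alone kept its call without neuron 1 and with the batch term, and the other 7 then had adjusted p-values of up to 0.195 without neuron 1. Centring on the neuronal list kept all 8, and voom all but Vha100-2 (0.0544). The enterocyte sum moved with this list too.

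Chaperones and folding enzymes of the endoplasmic reticulum gave 4 calls among 17 genes (23.5%, beside 2.66% of all genes), all higher in glia and all close to the threshold. Gp93, the Hsp90 of this compartment, had 706, 1099 and 836 normalized counts in glia and 471, 500.2 and 536 in neuron (log2 difference 0.79, SE 0.19, adjusted p = 0.0470), but 498, 707, 728 and 889.9 in both and 863, 725 and 777 in control libraries. The disulphide isomerase gene Pdi had 1484, 1959 and 1468 in glia and 1062, 1212 and 1229.8 in neuron (0.48, SE 0.12, adjusted p = 0.0459), and ERp60, of the same family, had 732, 1186 and 869 in glia and 559, 638 and 595 in neuron (0.61, SE 0.15, adjusted p = 0.0481). The calreticulin gene Crc had 1065, 1606 and 1207 in glia and 872, 841 and 891 in neuron (0.55, SE 0.14, adjusted p = 0.0472). Glia 2 was the highest library for all 4. Without glia 2, neuron 1, neuron 2 or neuron 3 none of the 4 was called (adjusted p 0.0826 to 0.208), nor with the batch term (0.0954 to 0.122), the neuronal centring (0.0593 to 0.0805) or voom (0.0516 to 0.0588).

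Detoxification genes were mixed in direction. Of 112 cytochrome P450 and UDP-glycosyltransferase genes, 9 were higher in glia and 1, Cyp28c1, lower (8.93% called, beside 3.24% of all genes). Their median difference was 0.0182. The UDP-glycosyltransferase Ugt86Dj had 11.7, 15.3 and 16.3 normalized counts in glia and no read in neuron (log2 difference 3.93, SE 0.41, adjusted p = 0.000471). CG5724, of the same family, had 32.5, 34.7 and 30.4 in glia and 0.887, 1.82 and 1.92 in neuron (log2 difference 3.75, SE 0.51, adjusted p = 0.00173), and CG16732 had 27.3, 18.4 and 36.9 in glia and 0, 0 and 4.80 in neuron (3.93, SE 0.67, adjusted p = 0.00616). These and CG18869 were called whichever library was left out. Cyp28c1 had 14.3, 11.2 and 11.9 in glia and 29.3, 25.5 and 28.8 in neuron (log2 difference -1.10, SE 0.27, adjusted p = 0.0458), and it lost its call without glia 2 or any neuron library (adjusted p up to 0.183) or with voom (0.0756). Among 53 oxidative stress genes only the glutathione transferase GstE10 was called (1.89%, beside 3.24% of all genes). It had 16.9, 17.3 and 20.6 in glia and 0, 0 and 2.88 in neuron (log2 difference 3.61, SE 0.57, adjusted p = 0.00429).

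Metallothioneins bind metals such as copper, and of the 6 measured genes 4 were higher in glia (66.7%, beside 2.66% of all genes). The family was looked at after its values were seen. MtnE had 92.3, 260.0 and 40.1 normalized counts in glia and 0.887, 3.64 and 7.69 in neuron (log2 difference 4.56, SE 0.63, adjusted p = 0.00182), and MtnD had 39.01, 106 and 19.5 in glia and 3.55, 3.64 and 2.88 in neuron (log2 difference 3.36, SE 0.55, adjusted p = 0.00512). MtnB and MtnC differed by 4.07 and 5.18, and they lost their call without glia 2, neuron 1 or neuron 3 (adjusted p up to 0.112). None of the 4 was called with voom (adjusted p 0.0570 to 0.108). The abundant MtnA had 2293, 2002 and 1987 in glia and 1454, 2184 and 1586 in neuron, overlapped, and did not pass (log2 difference 0.29, SE 0.16, adjusted p = 0.315).

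Of 31 antimicrobial peptide genes 1 was called (3.23%, beside 3.24% of all genes), the attacin AttC, with 42.9, 228 and 132 normalized counts in glia and 16.8, 23.6 and 18.3 in neuron (log2 difference 2.44, SE 0.60, adjusted p = 0.0476). The both libraries held 72.8, 143, 62.5 and 108 and control libraries 23.6, 117 and 42.4, so the neuron libraries were at the low end. The call was kept without glia 1 and lost without any of the other 5 libraries (adjusted p up to 0.184). Of 32 immune signalling genes 2 were called (6.25%, beside 3.24%), the peptidoglycan amidases PGRP-SC1a and PGRP-LB, which degrade bacterial wall fragments. PGRP-SC1a had 22.1, 24.5 and 1.08 in glia and no read in neuron (log2 difference 3.42, SE 0.81, adjusted p = 0.0402). PGRP-LB had 63.7, 53.02 and 43.4 in glia and 22.2, 23.6 and 29.8 in neuron (log2 difference 1.05, SE 0.26, adjusted p = 0.0471), and among fits with 1 library left out each amidase was called only without glia 4 (adjusted p up to 0.192 in the others). AttC and both amidases were not called with voom (0.113 for AttC and up to 0.106 for the amidases).

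Further families, examined after their values were seen, gave calls mostly higher in glia, beside 2.66% of all genes called higher and 0.583% lower. Of 33 tetraspanins, small membrane scaffold proteins, 7 were higher and 1, Tsp42Ej (-0.72), lower. Tsp42Ec had 152, 143 and 109.5 normalized counts in glia and 0, 0 and 2.88 in neuron (log2 difference 6.42, SE 0.86, adjusted p = 0.00171), and Tsp29Fb had 568, 535 and 523 in glia and 108, 184 and 166 in neuron (log2 difference 1.86, SE 0.28, adjusted p = 0.00304). Of 7 caspases, the proteases of programmed cell death, 3 were higher. Damm had 36.4, 70.3 and 99.7 in glia and 4.43, 5.46 and 3.84 in neuron (log2 difference 3.54, SE 0.53, adjusted p = 0.00304), while Decay (3.41) and Strica (1.95) lost their call without glia 2 or neuron 1 (adjusted p up to 0.126). Of 6 integrins, scb and Itgbetanu were higher, the second at 61.1, 107 and 86.7 in glia and 10.6, 20.9 and 21.1 in neuron (2.23, SE 0.48, adjusted p = 0.0239). The call of Itgbetanu was lost without glia 2 or neuron 1 (adjusted p up to 0.127). The summed gut level, 27000 to 72530 in glia and 2156 to 14060 in neuron, was again higher in glia. Over glia 1, 2 and 4 in that order, the gut sum, Tsp42Ec and Tsp29Fb fell, Damm and scb rose, and Itgbetanu was highest in glia 2. The part of the gut level was not tested.

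Among 19 fly orthologs of genes linked to Parkinson's disease, 1 was called (5.26%, beside 3.24% of all genes). CG31148, named Gba1a in the current annotation and 1 of a pair of fly genes for the lysosomal glucocerebrosidase, had 13, 41.8 and 17.3 normalized counts in glia and 0, 0.909 and 0 in neuron (log2 difference 4.16, SE 0.52, adjusted p = 0.00124). Against the single neuron read its ratio was 81.9, with a counting interval of 14.2 to 3280. It had no read in the both libraries and 3.72, 2.03 and 1.33 in control libraries, and its call was kept whichever library was left out and with the batch term. The summed gut level, 27000 to 72530 in glia and 2156 to 14060 in neuron, was also higher in glia. Its part in this call was not tested. The other gene of the pair, CG31414 (Gba1b), had 118, 111 and 101 in glia and 138, 135 and 174 in neuron and did not pass (log2 difference -0.43, SE 0.15, adjusted p = 0.137). Synj, a synaptic phosphoinositide phosphatase, had 493, 379 and 544 in glia and 638, 561 and 571 in neuron (-0.34, SE 0.12, adjusted p = 0.140), and Lrrk, a kinase, had 300.4, 239.6 and 369.7 in glia and 376, 338 and 442 in neuron (-0.36, SE 0.16, adjusted p = 0.215). The differences of CG31414, Synj and Lrrk took the other sign when libraries were centred on the neuronal list (0.11, 0.20 and 0.18). Of 38 autophagy and lysosome genes CG31148 was again the 1 call (2.63%, beside 3.24% of all genes).

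Uro, the urate oxidase of the Malpighian tubules, had 101, 199 and 218 normalized counts in glia and 0, 0 and 19.2 in neuron (log2 difference 5.92, SE 0.96, adjusted p = 0.00483), and it was the only call among 12 tubule genes (8.33%, beside 2.66% of all genes higher in glia). Of 13 oenocyte genes 3 were higher (23.1%), FASN2 and the fatty acid elongases CG9458 and CG9459. FASN2, a fatty acid synthase listed in the table under v(2)k05816, had 495, 1571 and 581 in glia, 74.5, 186 and 63.4 in neuron, 35.8, 27.3, 10.4 and 47.3 in both and 1226, 507 and 553 in control libraries (log2 difference 2.99, SE 0.59, adjusted p = 0.0161). Glia and control libraries overlapped for this gene, and neuron and both libraries lay below them. All 3 calls were lost without glia 2, neuron 1 or neuron 3 (adjusted p up to 0.131) and with the batch term (up to 0.0954), and CG9458 and CG9459 with voom (up to 0.114).

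Genes of reproductive organs varied between libraries of 1 group. The eggshell gene dec had 61.1, 871 and 7.59 normalized counts in glia and no read in neuron (log2 difference 6.28, SE 1.19, adjusted p = 0.0132). It was the only call among 8 eggshell genes (12.5%, beside 3.24% of all genes). Its call was lost without neuron 1 (adjusted p = 0.0609) and with voom (0.359). The vitelline membrane gene Vm26Aa had 67.6, 789 and 0 in glia and no read in neuron and did not pass (log2 difference 5.24, SE 1.63, adjusted p = 0.0995). None of 20 female germline genes, 56 accessory gland genes or 43 testis genes was called in limma or in voom on recovered reads. At an unadjusted p under 0.05 they held 9, 15 and 5 genes, and their median differences were 2.30, 1.53 and 1.65. The accessory gland list summed to 162.6, 2542 and 1613 in glia and 235, 181.9 and 194.1 in neuron, so glia 1 lay below all 3 neuron libraries while the other 2 glia libraries lay above them. It was higher still in control, at 17650, 2909 and 7001. Testis genes summed to 1862, 1710 and 3337 in glia, 1694, 1796 and 1577 in neuron and 3991, 3834 and 1862 in control. With all genes of the organ lists removed, 378 of 11909 genes were called, 303 higher and 75 lower.

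Genes of the antenna were among those lower in glia, and 3 of the 10 largest differences in this direction were in odorant-binding genes. Odorant-binding proteins are carriers secreted into the fluid around olfactory neurons. Of the 35 genes listed for them, 5 were called, all lower in glia (14.3%, beside 0.583% of all genes). The list does not hold lush, which is given below. The list as a whole was mixed, with 24 negative and 11 positive differences that reached 3.38, and its median of -0.20 became 0.34 with the neuronal centring. Obp28a had 83.2, 40.8 and 96.5 normalized counts in glia and 183, 174 and 184 in neuron (log2 difference -1.37, SE 0.25, adjusted p = 0.00907), and 169, 204, 154 and 160.2 in both and 128, 135 and 113 in control libraries. Obp83a had 235, 147 and 394 in glia and 556, 521 and 596 in neuron (log2 difference -1.22, SE 0.28, adjusted p = 0.0336), and Obp19d had 1378, 691 and 1486 in glia and 2185, 2109 and 2922 in neuron (-1.08, SE 0.25, adjusted p = 0.0335). Obp69a and Obp19a differed by -1.29 and -1.28. Glia 2 was the lowest library for all 5, and no glia library reached the lowest neuron library. Obp28a alone was called without neuron 1, without neuron 3 and with centring on the neuronal list (difference -0.83). The other 4 then had adjusted p-values of up to 0.147, 0.117 and 0.125, and 3 of the 5 were called with the batch term.

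A wider group of 16 olfactory support genes was made after values were seen. Of these, 11 were called, all lower in glia (68.8%, beside 0.583% of all genes). The 11 include the 5 odorant-binding proteins above and Orco. Jhedup, a duplicate of the juvenile hormone esterase gene, had 228, 102 and 203 normalized counts in glia and 438, 411 and 388 in neuron (log2 difference -1.29, SE 0.26, adjusted p = 0.0162). a10, a chemosensory protein of the antenna, had 228, 112 and 226 in glia and 470.0, 357 and 441 in neuron (log2 difference -1.22, SE 0.26, adjusted p = 0.0235), and antdh, an antennal dehydrogenase, had 121, 75.4 and 101 in glia and 227, 215 and 213 in neuron (log2 difference -1.16, SE 0.20, adjusted p = 0.00843). lush, the odorant-binding protein of pheromone-sensing sensilla, had 48.1, 28.5 and 80.2 in glia and 116, 99.1 and 125 in neuron (-1.22, SE 0.27, adjusted p = 0.0312). Of 106 chemoreceptor genes 1 was lower (0.943%, beside 0.583% of all genes), the odorant co-receptor Orco. It had 83.2, 54.04 and 83.5 in glia and 202, 163 and 153 in neuron (log2 difference -1.24, SE 0.28, adjusted p = 0.0326). Chemoreceptor genes held few reads, with a median level of 2.04 to 2.6 in glia and 4.43 to 4.8 in neuron. Of the 11 support genes, 6 were called with the batch term, 2 without neuron 1, 3 without neuron 3, 4 without glia 2 and 2 with the neuronal centring, the others having adjusted p-values of up to 0.184. With voom 9 were called, and OS9 and Orco were not (0.0511 each). The summed neuronal level, 30400 to 61220 in glia and 62400 to 75120 in neuron, was lower with them, and its part was not tested.

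Photoreceptor genes gave 9 calls among 42, all lower in glia (21.4%, beside 0.583% of all genes), with a median difference of -0.78 over the list. Rh6, an opsin of inner photoreceptors, had 732, 365 and 661 normalized counts in glia and 1169, 913 and 1119 in neuron (log2 difference -0.92, SE 0.22, adjusted p = 0.0387), with 1299, 1103, 1133 and 970.0 in both and 667, 819 and 751 in control libraries. Rh3, another opsin of inner photoreceptors, had 1068, 634 and 1017 in glia and 1758, 1547 and 1525 in neuron (log2 difference -0.86, SE 0.21, adjusted p = 0.0414), with 1890.4, 1921, 1570.5 and 1398 in both and 1043, 1465 and 983 in control libraries. For both opsins the control means lay nearer to glia. Gbeta76C, the β subunit of the visual G protein, had 805, 452 and 945 in glia and 1494, 1132 and 1422 in neuron (log2 difference -0.93, SE 0.22, adjusted p = 0.0385). Pdh, a retinol dehydrogenase of the eye, had 1191, 776 and 1236 in glia and 2205, 1559.7 and 2601 in neuron (log2 difference -0.99, SE 0.21, adjusted p = 0.0238). The scaffold protein inaD, the diacylglycerol kinase rdgA, the ligand boss, the microvillar protein prom and the transcription factor gl completed the 9. None of the 9 was called without neuron 1 (adjusted p 0.113 to 0.193), without neuron 3 (0.0911 to 0.115) or with centring on the neuronal list (0.158 to 0.333), and only Pdh with the batch term (0.0344). With voom 6 of the 9 were called, and inaD, Rh3 and rdgA were not (up to 0.0565). The most abundant opsin, ninaE, had 47638, 24122 and 46491 in glia and 84273, 58801 and 79039 in neuron and did not pass (log2 difference -0.96, SE 0.32, adjusted p = 0.120).

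None of 30 neuronal genes or 24 glial genes was called in limma or in voom on recovered reads, while 24 of the neuronal and 10 of the glial genes had an unadjusted p under 0.05. All 30 neuronal genes had negative differences, with a median of -0.56, and elav, an RNA-binding protein of all neurons, had 1021, 557 and 1178 normalized counts in glia and 1406, 1304 and 1225 in neuron (log2 difference -0.58, SE 0.21, adjusted p = 0.137). The glial list had a median of -0.30, which became 0.24 when libraries were centred on the neuronal list. The astrocyte gene alrm had 179, 138 and 263 in glia and 264, 285 and 248 in neuron (log2 difference -0.50, SE 0.20, adjusted p = 0.171). Gli, a septate junction protein of the blood-brain barrier glia, had 165, 154 and 206 in glia and 122, 135 and 124 in neuron (log2 difference 0.45, SE 0.12, adjusted p = 0.0615), without overlap. Eaat2, an excitatory amino acid and taurine transporter, had 943, 541 and 1144 in glia and 1366, 1280.5 and 1193 in neuron (log2 difference -0.61, SE 0.20, adjusted p = 0.118). Glia 2 held the lowest value for elav, alrm and Eaat2.

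Genes of other kinds were also lower in glia. CG9497 had 152, 82.6 and 155 normalized counts in glia and 387, 336 and 427 in neuron (log2 difference -1.60, SE 0.22, adjusted p = 0.00182), and CG17325 had 118, 85.6 and 111 in glia and 224, 264 and 272 in neuron (log2 difference -1.27, SE 0.15, adjusted p = 0.00111). CG9497, CG17325 and Obp28a, of the 10 genes with the largest differences in this direction, were called whichever library was left out. With the neuronal centring CG17325 was not called (adjusted p = 0.110). CG8213 had 1.30, 1.02 and 0 in glia and 6.21, 5.46 and 8.65 in neuron, a ratio of 0.111 with a counting interval of 0.0127 to 0.452. The potassium channel gene sei had 93.6, 84.6 and 118 in glia and 161, 157 and 179 in neuron (log2 difference -0.75, SE 0.16, adjusted p = 0.0258), and loqs, a double-stranded RNA-binding partner of the Dicers, had 268, 213 and 313 in glia and 424, 355 and 433 in neuron (-0.62, SE 0.13, adjusted p = 0.0259). The homeobox gene Hmx had 10.4, 6.12 and 13.01 in glia and 30.2, 20.01 and 23.1 in neuron (log2 difference -1.26, SE 0.31, adjusted p = 0.0484). The blood cell and eye transcription factor lz had 31.2, 26.5 and 41.2 in glia and 66.5, 67.3 and 67.3 in neuron (log2 difference -1.02, SE 0.21, adjusted p = 0.0200). It was the only call among 11 hemocyte genes (9.09%, beside 3.24% of all genes). CG8213, sei, loqs, Hmx and lz lost their call without glia 2, neuron 1 or neuron 3 (adjusted p up to 0.213) and with the batch term (0.0662 to 0.0992). CG8213 and Hmx were also lost with voom (0.0676 and 0.0677).

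Of the 44 lists described, 19 had at least 1 called member, 13 of them higher only, 5 lower only and 1 in both directions. No proteasome subunit of 32 was called in limma or voom, and 17 had an unadjusted p under 0.05. Of the 32 differences 31 were positive, with a median of 0.37. No cell cycle gene of 33 was called in limma or voom, and 12 had an unadjusted p under 0.05. All 33 differences were positive, with a median of 1.53. The cell cycle list summed to 1144, 7085 and 512.8 in glia and 427.4, 612.1 and 479.4 in neuron, so glia 2 stood alone. The 25 lists without a call include the proteasome, the cell cycle, the neuronal and the glial genes. Over all 395 calls, 61 of the 324 higher and 18 of the 71 lower genes belong to a list.

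**Figure D5:**
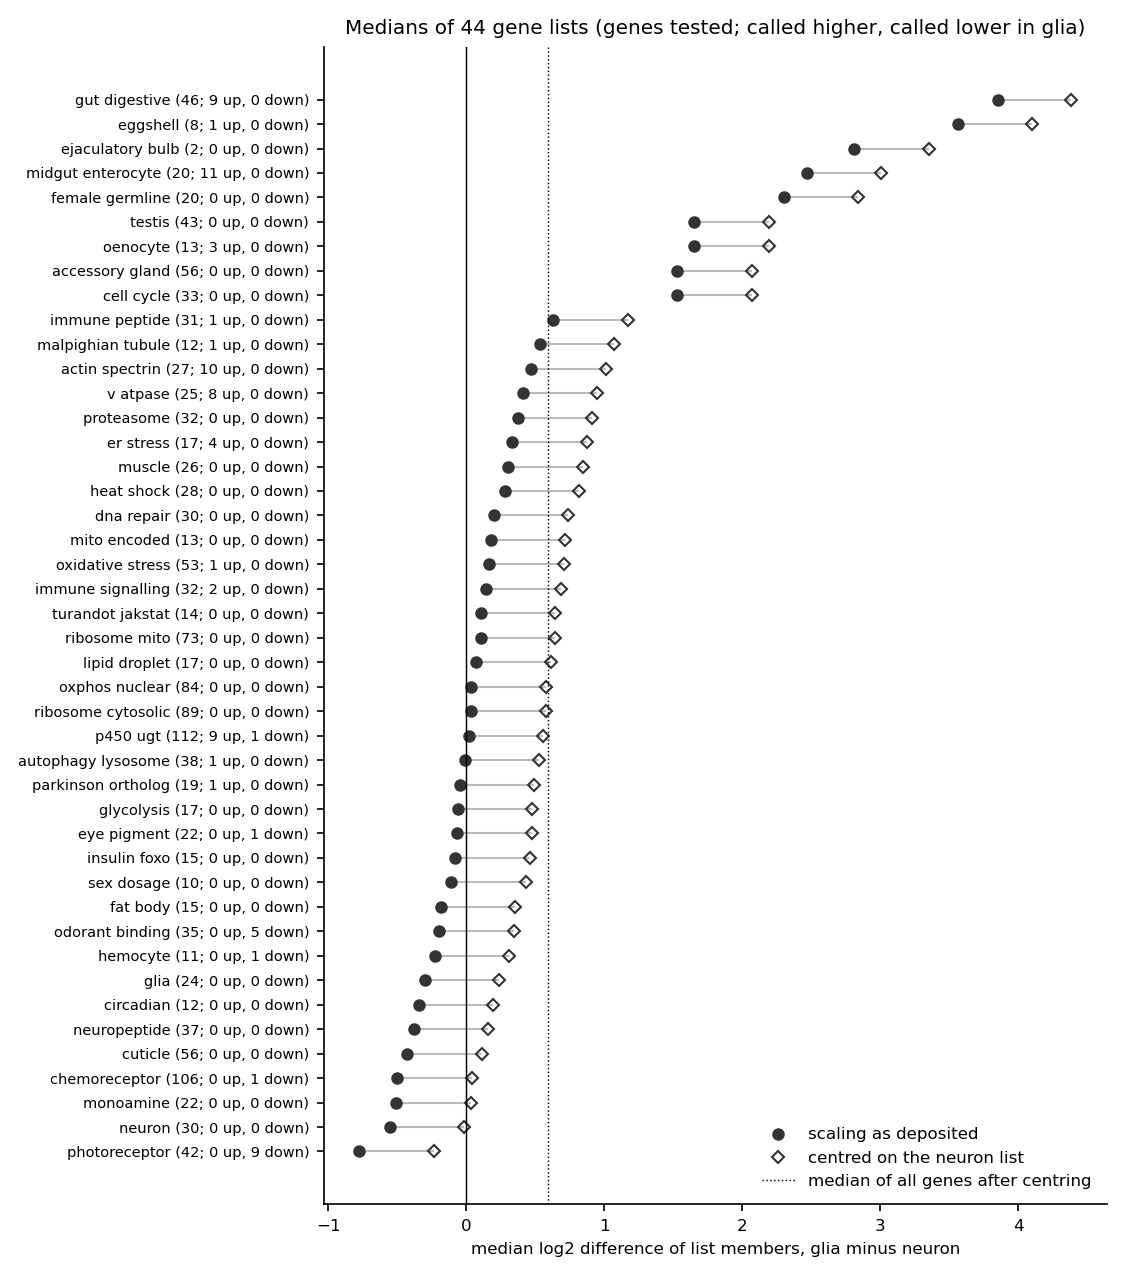
Median log2 difference, glia minus neuron, over the tested members of each of 44 gene lists, on the deposited scale and after centring the libraries on the neuronal list. The gut enzymes lie at 3.85, and the photoreceptor list (-0.78) moves to -0.24 with the centring.

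Some called genes higher in glia lay beside each other on the chromosome. Of the 324, 83 (25.6%) were in 34 runs of neighbouring tested genes, 11 of them with 3 or more genes. None of the 71 lower genes was next to another, but so small a set leaves little room for neighbours. The share for randomly chosen genes was not computed, so the 2 directions are not compared. Positions are from the Ensembl BDGP6 annotation, a build that the submitters' processing notes also name. The longest run held CG34176, CG15422, CG15423, CG43773 and CG43774 within 5.01 kb of chromosome 2L (2L:4004080-4009090). Of these, CG15423 had 100.1, 144 and 52.04 normalized counts in glia and no read in neuron (log2 difference 6.52, SE 0.76, adjusted p = 0.000912), and CG43774 had 85.8, 79.5 and 73.7 in glia and 0, 2.73 and 0.961 in neuron (5.38, SE 0.81, adjusted p = 0.00304). The aminopeptidase genes CG31343, CG31233, CG31198 and CG42335 lay within 24.0 kb on 3R (3R:21745266-21769301). The serine protease family genes spheroide, CG9673, CG4653 and CG9672 lay within 6.43 kb on X (X:16700446-16706874), and CG9673 had 176, 158 and 111 in glia and 12.4, 14.6 and 12.5 in neuron (log2 difference 3.37, SE 0.27, adjusted p = 6.94e-05). The mannosidase genes CG9463, CG9466 and CG9468 lay within 16.0 kb on 2L (2L:8765273-8781252), and Mal-A2, Mal-A3 and Mal-A4 within 7.26 kb on 2R (2R:8453627-8460884). By chromosome arm, the share of tested genes called was 3.67% on 2L, 3.67% on 2R, 2.78% on 3L, 3.37% on 3R and 2.56% on X. None of 78 genes on chromosome 4 was called in limma or voom, and 21 had an unadjusted p under 0.05.

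The levels in control and both libraries place these differences, as a description of means. Control lay between glia and neuron for 305 of the 324 higher genes (94.1%), beside 46.1% of all tested genes. It was nearer to neuron for 260 of them (80.2%, beside 46.9%), and both was nearer to neuron for 316 (97.5%, beside 74.6%). For the 71 lower genes, control lay between the groups for 70 (98.6%) and nearer to neuron for 35 (49.3%), and both was nearer to neuron for all 71. Choosing genes by a difference between glia and neuron favours values of other groups between them, so nothing is read from the first of these shares. In Rh6 control libraries were near the glia ones, whereas in CG18404 and CG11961 they overlapped the neuron ones. In Myo61F and Act5C every control library lay between the groups, with control means nearer to neuron.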

How the data were processed

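RNA from pooled fly heads was ribosome-depleted and sequenced as stranded paired-end libraries, per the labels' protocols. The deposited values are a signal, 1 plus a read count divided by a size factor of the library, which the authors made; STAR, featureCounts, Salmon and DESeq2 are listed with FastQC and MultiQC in the submitters' processing notes, without versions, and BDGP6 as the build. The aligner settings and the treatment of reads that match several genes are not given in the sources used here. The offset of 1 was subtracted, and the values then gave whole reads in 100% of cases (tolerance 0.01).

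Genes with at least 1 normalized count in at least 4 of 13 libraries were tested, 12181 in all, 105 being left out. log2(normalized count + 1) was fitted with limma 3.58.1 (R 4.3.3, trend, 4 groups, no batch term, 9 residual degrees of freedom), with Benjamini-Hochberg adjusted p-values called at 0.05. Nothing in the labels says that libraries of a group came from separate crosses, so p-values measure the spread between these libraries. The fit was also run on simulated counts with a spread shared by all genes, and the outcome is not given here or used as support. Other settings tried were pseudocounts, filters, scalings, batch terms, voom on recovered reads and single libraries left out. Gene IDs matched the Ensembl names for 12147 of 12286 genes, and positions are from Ensembl BDGP6. A group without reads was given a floor of 3 reads, and 95% counting intervals cover counting error only.

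Genes named are the 10 largest differences in each direction among called genes with a mean of at least 5 in the higher group, the 8 smallest p-values in each direction with means of at least 50 in both groups, up to 4 members of each list by p-value, the leading organ markers, repo, nSyb and w; others are said to be chosen after their values were seen, as are called list members given by their difference and the markers ninaE, elav, alrm and Ssk. The members and lists were chosen with earlier results of these data known. Replicate numbers mark batches in the labels and so pair the libraries; the 16 pairs of same-batch libraries had a median correlation of 0.0697 between their deviations from group means, above 0.1 in 5.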

Additional observations from a re-analysis of the deposited data

Results flagged for a closer look

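In the group with α-synuclein in both cell classes, 1 of the 4 libraries stood apart from the other 3 by Dixon's test at the 95% level for 4 of the genes and gene sums described. CG18404 was at 6.76 normalized counts in both 4, against 0, 0 and 0.744 in both 1, 2 and 3. thetaTry was at 12.5 in both 4 and at 0 in the other 3. For values with a normal spread, chance flags about 1 in 20 such groups. That rate does not hold where 3 of the 4 libraries are at 0, since any read in the other is then flagged. This is the case for thetaTry and for Muc11A. Muc11A was at 0.965 in both 4 and at 0 in the other 3, which is 1 read. Ubx was at 26.8 in both 3, against 5.11, 2.56 and 5.79 in both 1, 2 and 4. In CG18404 and thetaTry the value of both 4 remained below that of every glia library, and the summed gut level was 26950 in both 4, the highest of the 4. Its part was not tested.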

How the results depend on the processing

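Glia 2 and neuron 1 moved the number of calls most downwards, each when left out. The 395 calls (324 higher, 71 lower in glia) ranged from 139 to 1192 (135 to 601 higher, 4 to 591 lower) when single libraries were left out. Fits of the 6 libraries alone gave 196 (186 and 10), the replicate block by batch gave 212 (186 and 26), and batches 1 and 2 alone with the block gave 250 (5 lower). voom gave 42 lower calls, the neuronal centring 3, and TMM scaling made 75.7% of calls higher. Without glia 2 and control 1, a setting chosen after seeing the data, 149 were called (139 and 10). Among 73 named called genes, 45 kept their call with the block, 28 with batches 1 and 2 alone and the block, 35 in the fit of 6 libraries, 50 with voom, 48 with the centring, 44 without glia 2 and 36 without neuron 1, and none changed direction under any setting run. The block on all libraries ended 28 of the 73 calls, and batches 1 and 2 alone with the block ended 45. Among genes that did not pass, the neuronal centring reversed Nhe2 (0.44), Desat1 (0.28), bnb (0.0178), CG31414 (0.11), Synj (0.20), Lrrk (0.18) and w (0.21). Single libraries left out moved Nhe2 between -0.23 and 0.0911 and w between -1.62 and 0.87, and without glia 2 and control 1 they were at 0.0911 and 0.19. The cause was not tested. The planned edgeR and DESeq2 fits were not run. The depth of 3125791 to 4176009 reads a library limits receptors and other genes of few reads.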

Other observations

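Called genes outside the lists, chosen after their values were seen, were also higher in glia heads. Ance, an angiotensin-converting enzyme homolog, had 533, 501 and 260.2 normalized counts in glia and 70.9, 164 and 128 in neuron (log2 difference 1.84, SE 0.37, adjusted p = 0.0171). Jheh3, a juvenile hormone epoxide hydrolase, had 218, 154 and 124 in glia and 67.4, 95.5 and 68.2 in neuron (log2 difference 1.07, SE 0.23, adjusted p = 0.0248). Peritrophin-15a, a chitin-binding protein, had 259, 192 and 19.5 in glia and 0, 0 and 1.92 in neuron, a ratio of 248 with a counting interval of 68.1 to 2050. The mucin gene Muc11A had 754, 775 and 1169 in glia and 2.66, 21.8 and 170.1 in neuron (log2 difference 5.18, SE 1.13, adjusted p = 0.0263), while it had 0, 0, 0 and 0.965 in both and 563, 47.7 and 353 in control libraries, so that control 1 and control 3 lay above all neuron libraries. Npc2f, of the sterol-binding Npc2 family, had 54.6, 67.3 and 17.3 in glia and 0, 7.28 and 0 in neuron (log2 difference 4.35, SE 0.79, adjusted p = 0.00980).

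Regulators of transcription and signalling were among them. The homeobox gene Ubx, which patterns the trunk, had 41.6, 54.0 and 43.4 normalized counts in glia and 4.43, 10.9 and 2.88 in neuron (log2 difference 2.90, SE 0.68, adjusted p = 0.0371), and 5.11, 2.56, 26.8 and 5.79 in both and 65.7, 19.3 and 34.5 in control libraries. Glia and control libraries overlapped for Ubx. Ptx1, a homeobox gene, had 112, 73.4 and 40.1 in glia and 19.5, 17.3 and 23.1 in neuron (log2 difference 1.75, SE 0.35, adjusted p = 0.0170), and the G protein α subunit gene Galphaf had 55.9, 63.2 and 34.7 in glia and 7.98, 14.6 and 12.5 in neuron (log2 difference 2.04, SE 0.39, adjusted p = 0.0153). For all of these genes every glia library lay above every neuron library. The order of glia 1, 2 and 4 was not the same in all of them. The summed gut level, 27000 to 72530 in glia and 2156 to 14060 in neuron, was also higher in glia. Its part was not tested. All 8 genes lost their call without glia 2 or neuron 1 (adjusted p up to 0.155), and Peritrophin-15a, Npc2f and Ubx with voom (0.212, 0.0505 and 0.0588).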
